A study of Mus musculus with 12 samples.

Results

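The genes described here are 46 genes that mark macrophages and other myeloid cells, followed through cultures of mouse embryonic fibroblasts. They were taken by gene symbol from the arrays' probe annotation, 1 probe set per gene, and all 46 of them were measured among 22180 genes. Total RNA was hybridised to 12 one-colour Affymetrix whole-transcript arrays, 3 in each of 4 groups. Gdap1-null cells were taken at day 4 after the 4 reprogramming factors Oct4, Sox2, Klf4 and cMyc were introduced (KO day 4) or before reprogramming (KO day 0). Wild-type cells were taken at day 4 after the same factors (WT day 4) or before reprogramming (WT day 0). The Gdap1 protein sits in the outer membrane of mitochondria and promotes their fission. All cells grew in DMEM with 10% serum. The strain, the embryonic stage and the making of the null allele are not given in the labels. Nor do they say if the 3 arrays per group are of different cultures or embryos, so the p-values measure only the spread between these arrays. A treatment label shared by all arrays names mock or factor transduction, without saying which of these the day 0 cells had.

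Macrophages arise from yolk sac and blood cell precursors, settle in most tissues and take up dead cells, microbes and immune complexes. Their identity rests on the transcription factor PU.1, encoded by Spi1, which binds purine-rich DNA with a GGAA core, and on signalling through the receptor CSF1R. Fc receptors and their adaptors, complement C1q, scavenger receptors, lysosomal enzymes and the phagocyte NADPH oxidase carry out much of the work of engulfing and digesting material, and fibroblasts express few of these genes.

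The values are log2 probe-set levels, so a difference of 1 is a 2-fold difference. Probe sets differ in affinity, and levels are compared between arrays and not between genes. No detection call was used here, and the 95th percentile of 1394 olfactory and vomeronasal receptor genes, at 4.34, served as a rough level of genes that fibroblasts do not use. By the mean over 12 arrays, 36 of the 46 members lay above it, beside 14299 of all 22180 genes. All-gene counts were not made by group. Group means lay above it for 33 members in KO day 4 and 29 in KO day 0 arrays, against 39 in WT day 4 and 38 in WT day 0 arrays. Of 14 markers that define macrophages, 10 lay above it in each KO group and 13 in each WT group. Ptprc, C1qc and Mrc1 were below it in both KO groups and above it in both WT groups, and Aif1 was below it in all 4 groups. The cultures were labelled fibroblasts, and all 16 fibroblast markers lay above the receptor level, with a mean between 9.93 and 10.25 on every array.

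Array 1 of WT day 4 stood apart from the other WT day 4 arrays. Results whose call or size it moves are given with and without it, by name or by count. This array held the highest of the 3 WT day 4 values for 34 of 46 members and for 34.9% of all genes. The mean over 18 interferon response genes was 7.88 on that array, against 6.44 and 5.84 on the other WT day 4 arrays, and that over 11 macrophage cytokine genes was 7.63, against 5.84 and 5.79. The part of this array's state in the results was not tested. Klf4, one of the introduced factors, averaged 10.26 in KO day 4 and 6.99 in KO day 0 arrays, against 10.15 in WT day 4 and 7.22 in WT day 0 arrays. The Gdap1 probe set lay between 2.82 and 3.30 on all arrays, at the 14.1 percentile of genes, and checks nothing about the genotype labels. No batch is named in the labels, so a batch and a group cannot be told apart.

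Macrophage genes were lower in Gdap1-null than in wild-type cultures at both days. At day 4, 32 of 46 members were lower in KO arrays and 0 higher, beside 12.4% of all genes lower and 8.34% higher. At day 0, 32 members were lower in KO arrays and 0 higher, beside 3.12% of all genes lower and 2.48% higher. The median KO minus WT difference over all 46 members was -0.93 at day 4 and -0.95 at day 0, with a median of 0.00 over all genes at each day. A difference below 0 was seen for 43 members at day 4 and 42 at day 0, beside 10995 and 11376 of all 22180 genes. Members lower at both days numbered 29. Another 3 passed the threshold at day 0 only (Fcgr3, Pf4 and Alox5ap) and 3 at day 4 only (Cd52, Lcp2 and Plek), and 11 passed in neither. These counts come from 1 limma fit to all 12 arrays with a Benjamini-Hochberg adjusted p under 0.05 over 22180 genes. The members were chosen with earlier results of these data known. Their counts and medians beside those of all genes therefore describe the list and do not test it. At an unadjusted p under 0.05, 36 members were lower and 0 higher at each day. All genes were not counted at that unadjusted cut, so no share stands beside these or the other lists' unadjusted counts. The ± after a difference is its standard error, with n = 3 arrays per group. The fit shares 1 spread per gene among all 4 groups, so a day 0 error also holds the spread of the day 4 arrays. Leaving out a day 4 array can therefore move a day 0 call without moving the day 0 difference. Without array 1 of WT day 4, 33 members were lower and 1 (Clec4n, 0.63, adjusted p = 0.0246) higher at day 4. Of all genes, 15.9% were then lower and 10.8% higher. At day 0, 38 members were then lower and 0 higher, beside 4.68% and 4.04% of all genes. The members' median differences were then -0.74 at day 4 and -0.95 at day 0. All 29 members lower at both days were among the 33 lower at both days without that array. In these bulk samples, fewer cells of a type and less RNA per cell cannot be told apart.

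**Figure D1:**
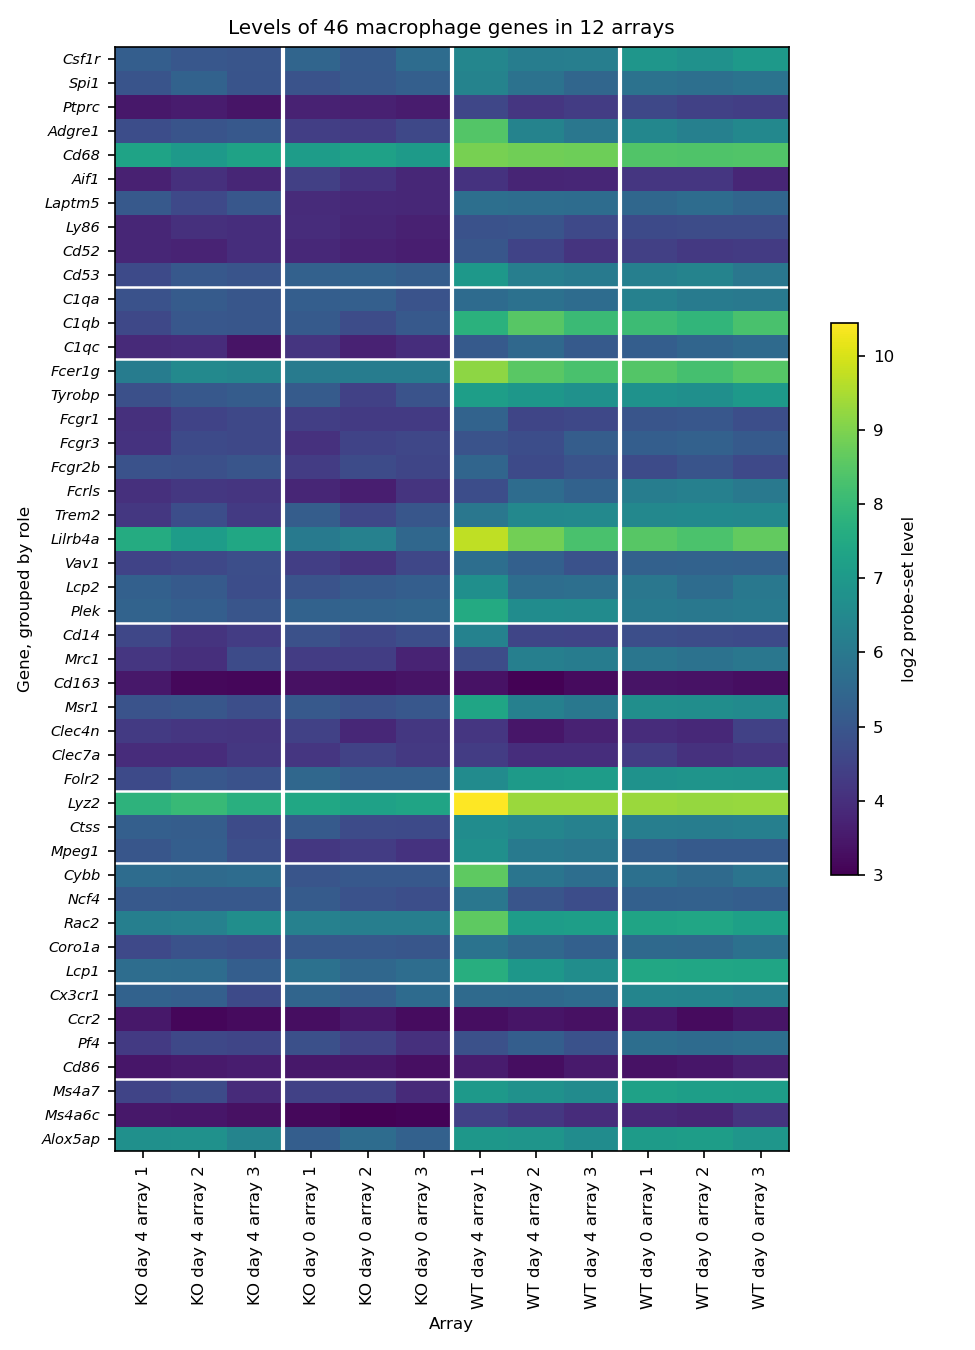
Log2 probe-set level of each of the 46 macrophage genes (rows, grouped by role, white lines between roles) on each of the 12 arrays (columns, white lines between groups). Most rows are darker, that is lower, in the 6 KO arrays than in the 6 WT arrays, and array 1 of WT day 4 is the brightest of its group for 34 of the 46 genes.

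The mean over all 46 members was 4.82, 4.89 and 4.81 in KO day 4 and 4.79, 4.70 and 4.70 in KO day 0 arrays, against 6.20, 5.78 and 5.67 in WT day 4 and 5.88, 5.83 and 5.86 in WT day 0 arrays. All 6 KO arrays lay below all 6 WT arrays. Within each genotype the day 4 and day 0 arrays differed by less than the genotypes did, and the KO day 4 arrays all lay slightly above the KO day 0 arrays.

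**Figure D2:**
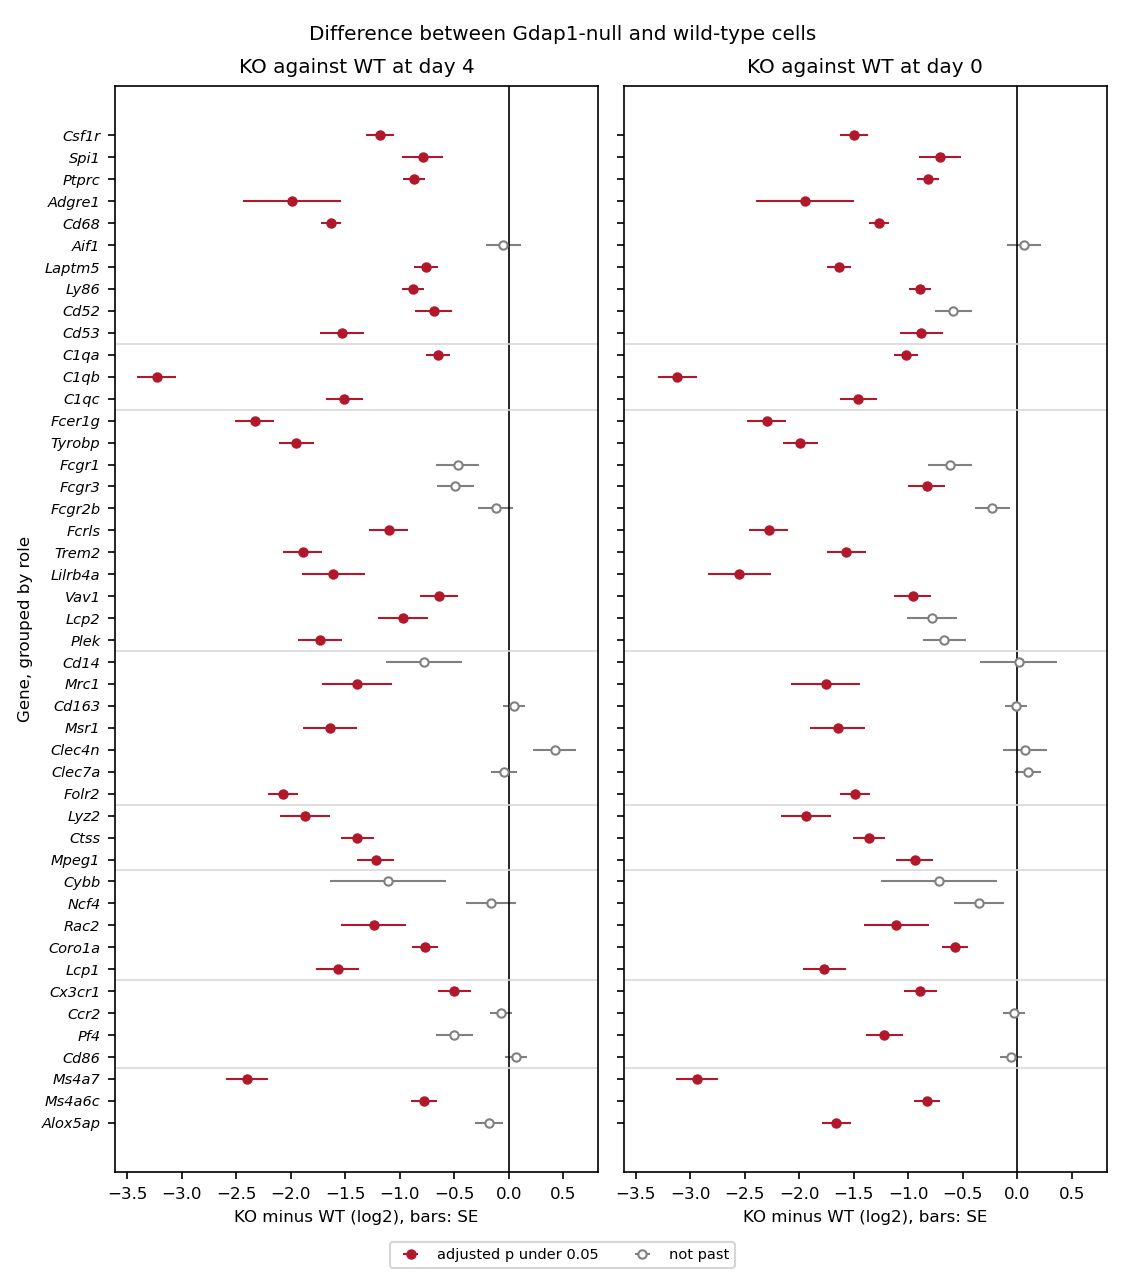
Difference KO minus WT in log2 level for each of the 46 macrophage genes at day 4 (left) and day 0 (right), with bars of 1 standard error (n = 3 arrays per group) and filled points where the adjusted p was under 0.05. The 32 filled points in each panel all lie left of 0, and C1qb is the farthest left in both.

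The 3 chains of complement C1q held the member farthest apart between the genotypes. C1q is the recognition molecule that starts the classical complement pathway, and in tissues macrophages are its main source. C1qb, the B chain, had levels of 4.62, 5.03 and 5.0 in KO day 4 and 5.12, 4.73 and 5.07 in KO day 0 arrays, against 7.74, 8.51 and 8.07 in WT day 4 and 8.09, 7.91 and 8.29 in WT day 0 arrays. All 6 KO arrays lay far below the lowest WT array, and the days did not separate within a genotype. The C chain, C1qc, had levels of 3.88, 3.95 and 3.38 in KO day 4 and 4.14, 3.70 and 3.98 in KO day 0 arrays, against 5.11, 5.5 and 5.10 in WT day 4 and 5.23, 5.42 and 5.56 in WT day 0 arrays. Again no KO array reached the lowest WT array. C1qa, which encodes the A chain, had levels of 4.88, 5.13 and 5.0 in KO day 4 and 5.21, 5.24 and 4.90 in KO day 0 arrays, against 5.59, 5.77 and 5.62 in WT day 4 and 6.28, 6.10 and 6.02 in WT day 0 arrays. Its groups did not overlap between the genotypes at either day, with a smaller gap than for C1qb, and the WT day 4 arrays lay below the WT day 0 arrays. At day 4 the KO minus WT difference was -3.23 ± 0.18 (adjusted p = 8.97e-07) for C1qb, -1.51 ± 0.17 (adjusted p = 0.000118) for C1qc and -0.65 ± 0.11 (adjusted p = 0.00139) for C1qa. At day 0 it was -3.12 ± 0.18 (adjusted p = 2.69e-06) for C1qb, -1.46 ± 0.17 (adjusted p = 0.000206) for C1qc and -1.02 ± 0.11 (adjusted p = 0.000136) for C1qa. In the RefSeq annotation of GRCm38.p6 the 3 genes follow each other as C1qb, C1qc and C1qa, with 0 other coding genes between them.

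Because these genes moved together and Spi1 was among the members, the 250 bases before each gene's start were searched, on both strands, for the PU.1-type word GAGGAA, which reads TTCCTC on the opposite strand. RefSeq promoters on GRCm38.p6 were at hand for 32 of the 46 members. The word stood in 17 of the 32 (53.1%), against 25.9% of 27025 genes with a promoter entry. Longer words that overlap it were GAGGAAG, in 28.1% of member promoters and 12% of all, AGAGGAA, in 28.1% and 9.85%, GAGGAAGT, in 9.38% and 2.79%, and AGGAAGTG, in 18.8% and 3.62%. The unrelated word TATAAA stood in 12.5% of member promoters and 14.3% of all. The words were chosen with the results known, no test was made, and a match is a stretch of letters and no binding site. The 17 also included Aif1, Clec7a and Fcgr1, which passed in no comparison, and Fcgr3, Pf4 and Plek, which passed between the genotypes at 1 day only. C1qa, Csf1r and Spi1, lower at both days, were not among the 17, for lack of the word or of a promoter entry. From those with the word, the windows of 2 C1q chains and of Mrc1 and Trem2 were picked. These genes were lower in KO cultures at both days, and their windows are shown 5′ to 3′ along the gene. Capitals mark the searched word in either orientation.
C1qb (chr4:136886201-136886450, minus strand): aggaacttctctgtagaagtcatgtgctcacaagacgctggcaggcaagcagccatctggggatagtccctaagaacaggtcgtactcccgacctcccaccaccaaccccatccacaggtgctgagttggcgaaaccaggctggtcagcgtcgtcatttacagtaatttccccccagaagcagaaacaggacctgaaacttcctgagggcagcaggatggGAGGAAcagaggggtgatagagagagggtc
C1qc (chr4:136892915-136893164, minus strand): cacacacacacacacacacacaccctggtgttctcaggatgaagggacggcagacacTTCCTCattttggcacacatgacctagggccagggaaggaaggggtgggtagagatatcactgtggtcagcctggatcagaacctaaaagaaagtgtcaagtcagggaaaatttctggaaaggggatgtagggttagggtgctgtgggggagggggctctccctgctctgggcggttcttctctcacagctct
Mrc1 (chr2:14229164-14229413, plus strand): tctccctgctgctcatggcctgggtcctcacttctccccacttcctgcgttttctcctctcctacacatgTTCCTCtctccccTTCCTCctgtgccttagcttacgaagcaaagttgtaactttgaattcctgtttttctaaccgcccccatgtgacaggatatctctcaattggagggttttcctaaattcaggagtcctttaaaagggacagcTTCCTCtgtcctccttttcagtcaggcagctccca
Trem2 (chr17:48346151-48346400, plus strand): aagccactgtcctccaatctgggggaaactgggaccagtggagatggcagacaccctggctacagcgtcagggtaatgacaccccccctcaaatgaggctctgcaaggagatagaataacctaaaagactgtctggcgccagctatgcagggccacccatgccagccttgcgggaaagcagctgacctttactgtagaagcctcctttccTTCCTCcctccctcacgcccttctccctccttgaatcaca
The word began 30 bases before the start of C1qb, 193 before that of C1qc, 40 before that of Trem2, and 180, 167 and 35 before that of Mrc1.

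Lineage receptors and the regulator PU.1 were lower in KO cultures, with 9 of 10 members lower at day 4 and 8 of 10 at day 0. Csf1r, the receptor for colony-stimulating factor 1 on which most macrophages depend for survival, had levels of 5.22, 5.03 and 4.96 in KO day 4 and 5.43, 5.11 and 5.62 in KO day 0 arrays, against 6.42, 6.15 and 6.17 in WT day 4 and 6.91, 6.77 and 6.99 in WT day 0 arrays. Every KO array lay below every WT array, and WT day 4 arrays lay below WT day 0 arrays. Spi1, which encodes PU.1, had levels of 4.93, 5.35 and 4.93 in KO day 4 and 4.89, 5.08 and 5.24 in KO day 0 arrays, against 6.34, 5.79 and 5.46 in WT day 4 and 5.81, 5.71 and 5.83 in WT day 0 arrays. The KO and WT ranges did not touch, but the gap at day 4 was narrow. Ptprc, the pan-leukocyte phosphatase CD45, had levels of 3.47, 3.58 and 3.42 in KO day 4 and 3.72, 3.68 and 3.58 in KO day 0 arrays, against 4.58, 4.19 and 4.32 in WT day 4 and 4.62, 4.44 and 4.37 in WT day 0 arrays. Only the WT arrays came near or above the receptor level of 4.34, and all KO arrays were well below it. Adgre1, the macrophage surface protein F4/80, had levels of 4.77, 4.94 and 5.05 in KO day 4 and 4.38, 4.33 and 4.61 in KO day 0 arrays, against 8.44, 6.34 and 5.94 in WT day 4 and 6.45, 6.23 and 6.48 in WT day 0 arrays. Array 1 of WT day 4 was far above every other array, and the other WT arrays were still all above the KO arrays. Cd68, a lysosomal membrane glycoprotein abundant in phagocytes, had levels of 7.31, 7.02 and 7.28 in KO day 4 and 7.11, 7.27 and 7.06 in KO day 0 arrays, against 8.90, 8.82 and 8.79 in WT day 4 and 8.43, 8.39 and 8.42 in WT day 0 arrays. The genotypes were clearly apart, and the 3 WT day 4 arrays lay above the 3 WT day 0 arrays. At day 4 the differences were -1.18 ± 0.13 (adjusted p = 0.000118) for Csf1r, -0.79 ± 0.19 (adjusted p = 0.00977) for Spi1, and -0.87 ± 0.10 (adjusted p = 0.000196) for Ptprc. They were -1.99 ± 0.45 (adjusted p = 0.00817) for Adgre1 and -1.63 ± 0.09 (adjusted p = 8.33e-07) for Cd68. At day 0 they were -1.50 ± 0.13 (adjusted p = 2.63e-05) for Csf1r, -0.71 ± 0.19 (adjusted p = 0.043) for Spi1, and -0.82 ± 0.10 (adjusted p = 0.000461) for Ptprc. The same comparison gave -1.95 ± 0.45 (adjusted p = 0.0218) for Adgre1 and -1.27 ± 0.09 (adjusted p = 6.42e-06) for Cd68. Without array 1 of WT day 4 the day 4 difference of Adgre1 was -1.22 (adjusted p = 5.33e-05). The day 0 call of Adgre1 was lost when any 1 of the 6 day 0 arrays was left out (adjusted p 0.0599 to 0.083). The difference itself then lay between -2.03 and -1.89. The SD of Adgre1 was 0.15 in KO day 0 and 0.14 in WT day 0 arrays, against 1.35 in WT day 4 arrays, which share in the error. The day 0 call of Spi1 was lost when any 1 of the 6 day 0 arrays was left out (adjusted p up to 0.166). Leaving out WT day 4 array 2 or KO day 4 array 1 or 3 also lost it (adjusted p from 0.053). The SD of Spi1 was 0.17 in KO day 0 and 0.06 in WT day 0 arrays, against 0.45 in WT day 4 arrays.

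The other membrane proteins of the lineage were lower in KO cultures too, apart from Cd52 at day 0. Laptm5, a lysosomal transmembrane protein of blood cells, had levels of 5.09, 4.65 and 5.02 in KO day 4 and 3.92, 3.85 and 3.84 in KO day 0 arrays, against 5.73, 5.67 and 5.64 in WT day 4 and 5.48, 5.63 and 5.42 in WT day 0 arrays. KO day 0 arrays were lowest, KO day 4 arrays intermediate and both WT groups highest. Cd53, a leukocyte tetraspanin, had levels of 4.66, 5.04 and 4.92 in KO day 4 and 5.32, 5.33 and 5.19 in KO day 0 arrays, against 6.98, 6.17 and 6.05 in WT day 4 and 6.20, 6.34 and 5.96 in WT day 0 arrays. Here KO day 4 arrays lay below KO day 0 arrays, and both lay below all WT arrays. Ly86, the MD-1 protein that pairs with CD180 on myeloid and B cells, had levels of 3.80, 4.02 and 3.96 in KO day 4 and 3.94, 3.81 and 3.69 in KO day 0 arrays, against 4.86, 4.93 and 4.64 in WT day 4 and 4.66, 4.73 and 4.72 in WT day 0 arrays. All KO arrays were under the receptor level and all WT arrays over it. Cd52, a small glycoprotein of leukocytes, had levels of 3.81, 3.73 and 3.97 in KO day 4 and 3.85, 3.71 and 3.62 in KO day 0 arrays, against 4.98, 4.49 and 4.11 in WT day 4 and 4.41, 4.23 and 4.29 in WT day 0 arrays. The genotypes did not overlap at either day, with WT day 4 array 3 closest to the KO arrays. The day 4 differences were -0.76 ± 0.11 (adjusted p = 0.000465) for Laptm5, -1.53 ± 0.20 (adjusted p = 0.000323) for Cd53, -0.88 ± 0.10 (adjusted p = 0.000118) for Ly86 and -0.69 ± 0.17 (adjusted p = 0.0112) for Cd52. The day 0 differences were -1.64 ± 0.11 (adjusted p = 4.65e-06) for Laptm5, -0.88 ± 0.20 (adjusted p = 0.0187) for Cd53, -0.89 ± 0.10 (adjusted p = 0.000153) for Ly86 and -0.59 ± 0.17 (adjusted p = 0.0628) for Cd52, and the last did not pass. The day 0 call of Cd53 did not survive leaving out WT day 0 array 1 or 2 or any 1 KO day 0 array (adjusted p 0.0586 to 0.0902). Leaving out WT day 4 array 1 or array 3 brought Cd52 past the threshold at day 0 (adjusted p = 0.00383 and 0.014). Aif1, the cytoskeletal protein IBA1, passed in neither comparison and was under the receptor level in every group.

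**Figure D3:**
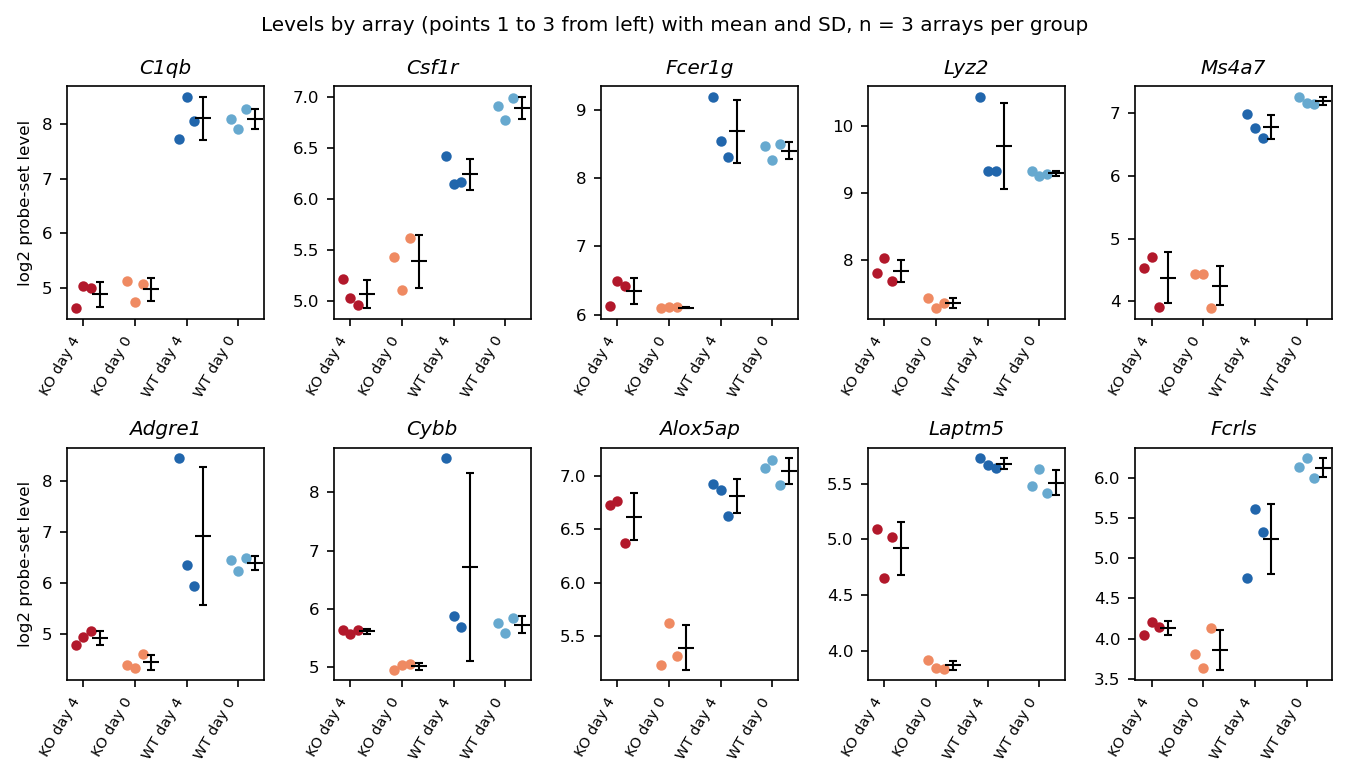
Log2 probe-set level on each array (points, arrays 1 to 3 from left within a group) with the group mean and SD (black, n = 3 arrays) for 10 of the 46 genes, each with its own axis. The KO groups lie below the WT groups for C1qb, Csf1r, Fcer1g, Lyz2, Ms4a7 and Adgre1, array 1 of WT day 4 stands above the rest for Adgre1 and Cybb, and KO day 4 lies between KO day 0 and WT for Laptm5.

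Fc receptors and the adaptors that signal for them were also lower in KO cultures, with 8 of 11 members lower at day 4 and 7 of 11 at day 0. Fcer1g encodes the gamma chain shared by activating Fc receptors, and its levels were 6.13, 6.49 and 6.42 in KO day 4 and 6.09, 6.11 and 6.11 in KO day 0 arrays, against 9.19, 8.54 and 8.31 in WT day 4 and 8.46, 8.26 and 8.49 in WT day 0 arrays. The genotypes were far apart at both days, and the KO day 0 arrays were nearly equal. Tyrobp, the adaptor DAP12 that signals for TREM2 and related receptors, had levels of 4.81, 5.05 and 5.16 in KO day 4 and 5.13, 4.45 and 4.91 in KO day 0 arrays, against 7.17, 6.93 and 6.77 in WT day 4 and 6.78, 6.70 and 6.99 in WT day 0 arrays. All WT arrays lay above all KO arrays, and the days overlapped within each genotype. Trem2, a lipid and apoptotic cell receptor whose promoter is printed with those of the C1q chains, had levels of 4.20, 4.76 and 4.26 in KO day 4 and 5.19, 4.59 and 4.99 in KO day 0 arrays, against 5.94, 6.46 and 6.5 in WT day 4 and 6.47, 6.53 and 6.48 in WT day 0 arrays. No KO array reached the lowest WT array, which was array 1 of WT day 4. Differences at day 4 were -2.33 ± 0.18 (adjusted p = 9.2e-06) for Fcer1g, -1.95 ± 0.16 (adjusted p = 1.88e-05) for Tyrobp and -1.89 ± 0.18 (adjusted p = 5.97e-05) for Trem2. Differences at day 0 were -2.30 ± 0.18 (adjusted p = 1.25e-05) for Fcer1g, -1.99 ± 0.16 (adjusted p = 1.59e-05) for Tyrobp and -1.57 ± 0.18 (adjusted p = 0.000252) for Trem2.

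An inhibitory receptor and an Fc receptor-like protein were lower in KO cultures at both days. Lilrb4a, an inhibitory receptor of the leukocyte immunoglobulin-like family, had levels of 7.58, 7.11 and 7.42 in KO day 4 and 6.08, 6.28 and 5.48 in KO day 0 arrays, against 9.74, 8.87 and 8.31 in WT day 4 and 8.52, 8.32 and 8.65 in WT day 0 arrays. KO day 0 arrays were lowest, KO day 4 arrays higher, and WT arrays highest. A probe set shared with the near-identical gene Lilr4b was also lowest in KO day 0 arrays, at 4.47, 4.86 and 4.29 in KO day 4 and 3.10, 3.34 and 3.27 in KO day 0 arrays, against 5.68, 5.30 and 4.88 in WT day 4 and 4.74, 5.10 and 4.77 in WT day 0 arrays. On this probe set array 2 of KO day 4 lay above 2 of the WT day 0 arrays. How far each of the 2 genes contributes is uncertain. Fcrls, an Fc receptor-like scavenger protein of mouse macrophages and microglia, had levels of 4.04, 4.21 and 4.14 in KO day 4 and 3.81, 3.63 and 4.13 in KO day 0 arrays, against 4.76, 5.62 and 5.33 in WT day 4 and 6.14, 6.25 and 6.0 in WT day 0 arrays. It was highest in WT day 0 arrays, lower in WT day 4 arrays and lowest in both KO groups. The differences were -1.61 ± 0.29 (adjusted p = 0.00245) for Lilrb4a and -1.10 ± 0.18 (adjusted p = 0.00135) for Fcrls at day 4. They were -2.55 ± 0.29 (adjusted p = 0.000235) for Lilrb4a and -2.28 ± 0.18 (adjusted p = 1.56e-05) for Fcrls at day 0. Of the classical IgG receptors, Fcgr3, a low-affinity activating receptor, had levels of 4.08, 4.66 and 4.61 in KO day 4 and 4.07, 4.50 and 4.59 in KO day 0 arrays, against 4.90, 4.75 and 5.18 in WT day 4 and 5.23, 5.30 and 5.11 in WT day 0 arrays. The genotypes did not overlap at either day but came close at day 4. Fcgr3 differed by -0.49 ± 0.17 (adjusted p = 0.0608) at day 4. At day 0 it differed by -0.83 ± 0.17 (adjusted p = 0.0117), and this call did not survive leaving out WT day 0 array 2 (adjusted p = 0.0557) or KO day 0 array 1 (0.0566). Fcgr1, the high-affinity receptor, and Fcgr2b, the inhibitory one, passed in neither comparison. They differed by -0.47 ± 0.20 and -0.12 ± 0.16 at day 4 and -0.62 ± 0.20 and -0.23 ± 0.16 at day 0. Fcgr1 passed at day 0 without WT day 4 array 1 (adjusted p = 0.00917). Fcgr2b and Fcgr3 are close relatives, and cross-hybridisation between their probe sets was not tested.

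Of the cytosolic signalling proteins of blood cells, all 3 members were lower in KO cultures at day 4 and 1 at day 0. Vav1, a guanine nucleotide exchange factor of blood cells, had levels of 4.51, 4.61 and 4.80 in KO day 4 and 4.38, 4.13 and 4.57 in KO day 0 arrays, against 5.68, 5.28 and 4.87 in WT day 4 and 5.32, 5.34 and 5.30 in WT day 0 arrays. KO arrays lay below WT arrays at both days, by a thin margin for WT day 4 array 3. Lcp2, the adaptor SLP-76, had levels of 5.29, 5.12 and 4.77 in KO day 4 and 4.91, 5.10 and 5.22 in KO day 0 arrays, against 6.71, 5.67 and 5.72 in WT day 4 and 5.96, 5.62 and 5.99 in WT day 0 arrays. The ranges did not overlap, and WT day 4 array 1 was the highest. Plek, encoding the protein kinase C substrate pleckstrin, had levels of 5.38, 5.21 and 4.97 in KO day 4 and 5.34, 5.37 and 5.42 in KO day 0 arrays, against 7.54, 6.62 and 6.60 in WT day 4 and 6.06, 5.99 and 6.07 in WT day 0 arrays. WT day 4 arrays stood above WT day 0 arrays, and both KO groups were lowest. At day 4 these differences were -0.64 ± 0.17 (adjusted p = 0.0187) for Vav1, -0.97 ± 0.23 (adjusted p = 0.0114) for Lcp2 and -1.73 ± 0.20 (adjusted p = 0.000148) for Plek. At day 0 only Vav1 passed, with -0.96 ± 0.17 (adjusted p = 0.00432), against -0.78 ± 0.23 (adjusted p = 0.0806) for Lcp2 and -0.67 ± 0.20 (adjusted p = 0.0772) for Plek. Without WT day 4 array 1, Lcp2 had a day 4 difference of -0.63 (adjusted p = 0.00919), and Lcp2 (adjusted p = 0.00281) and Plek (0.000521) also passed at day 0. The day 4 call of Vav1 did not survive leaving out WT day 4 array 2 (adjusted p = 0.0501) or KO day 4 array 1 (0.067).

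Among scavenger and pattern receptors, 3 of 7 members were lower in KO cultures at each day. Mrc1, the mannose receptor CD206, had levels of 4.17, 4.01 and 4.71 in KO day 4 and 4.31, 4.34 and 3.73 in KO day 0 arrays, against 4.72, 6.22 and 6.11 in WT day 4 and 5.92, 5.80 and 5.95 in WT day 0 arrays. Array 1 of WT day 4 lay well below the other WT arrays and only just above the highest KO day 4 array. Msr1, the class A scavenger receptor, had levels of 4.91, 4.98 and 4.80 in KO day 4 and 5.08, 4.86 and 5.03 in KO day 0 arrays, against 7.38, 6.24 and 5.98 in WT day 4 and 6.68, 6.66 and 6.57 in WT day 0 arrays. All KO arrays were below all WT arrays, with WT day 4 array 1 the highest. Folr2, folate receptor beta, a marker of tissue-resident macrophages, had levels of 4.67, 5.03 and 4.86 in KO day 4 and 5.48, 5.26 and 5.24 in KO day 0 arrays, against 6.59, 7.06 and 7.12 in WT day 4 and 6.78, 6.86 and 6.81 in WT day 0 arrays. Its genotypes were widely apart, and KO day 4 arrays lay below KO day 0 arrays. The differences at day 4 were -1.39 ± 0.32 (adjusted p = 0.00966) for Mrc1, -1.64 ± 0.25 (adjusted p = 0.000891) for Msr1 and -2.07 ± 0.14 (adjusted p = 2.99e-06) for Folr2. At day 0 the differences were -1.76 ± 0.32 (adjusted p = 0.00573) for Mrc1, -1.65 ± 0.25 (adjusted p = 0.00176) for Msr1 and -1.49 ± 0.14 (adjusted p = 4e-05) for Folr2. In a limma fit of the day 4 arrays alone the call of Mrc1 was lost (adjusted p = 0.0606). The lipopolysaccharide co-receptor gene Cd14 passed in neither comparison and had levels of 4.59, 4.13 and 4.31 in KO day 4 and 4.84, 4.58 and 4.80 in KO day 0 arrays, against 6.30, 4.56 and 4.52 in WT day 4 and 4.80, 4.73 and 4.66 in WT day 0 arrays. Array 1 of WT day 4 alone was high, and the other WT arrays overlapped the KO arrays. Cd163, the haemoglobin scavenger receptor, and the fungal lectin receptors Clec4n and Clec7a passed in neither comparison and had group means under the receptor level in all 4 groups.

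All 3 lysosomal and antimicrobial members were lower in KO cultures at both days. Lyz2, lysozyme of macrophages and neutrophils, had levels of 7.80, 8.02 and 7.68 in KO day 4 and 7.42, 7.27 and 7.35 in KO day 0 arrays, against 10.44, 9.33 and 9.32 in WT day 4 and 9.33, 9.25 and 9.28 in WT day 0 arrays. The WT arrays other than array 1 of day 4 were nearly equal, and all lay above all KO arrays. The near-identical Lyz1 lay between 3.54 and 4.50 on all arrays, and cross-hybridisation between the pair was not tested. Ctss, the lysosomal protease cathepsin S, had levels of 5.25, 5.18 and 4.70 in KO day 4 and 5.12, 4.70 and 4.66 in KO day 0 arrays, against 6.63, 6.41 and 6.27 in WT day 4 and 6.19, 6.14 and 6.21 in WT day 0 arrays. Its genotypes were separated at both days. Mpeg1, the pore-forming perforin-2 of phagocytes, had levels of 5.0, 5.22 and 4.80 in KO day 4 and 4.20, 4.33 and 4.09 in KO day 0 arrays, against 6.70, 6.05 and 5.94 in WT day 4 and 5.24, 5.10 and 5.10 in WT day 0 arrays. Both genotypes were higher at day 4 than at day 0, and each KO group lay below the WT group of the same day. At day 4 the differences stood at -1.87 ± 0.23 (adjusted p = 0.000214) for Lyz2, -1.39 ± 0.15 (adjusted p = 0.00012) for Ctss and -1.22 ± 0.17 (adjusted p = 0.000434) for Mpeg1. At day 0 the differences stood at -1.94 ± 0.23 (adjusted p = 0.000252) for Lyz2, -1.36 ± 0.15 (adjusted p = 0.000215) for Ctss and -0.94 ± 0.17 (adjusted p = 0.00484) for Mpeg1. Lysosomal proteins of most cells did not share this order, with 2 of 9 higher (Lgmn, 0.37 ± 0.09, and Ctsl, 0.46 ± 0.12) and 2 lower at day 4. The lower ones were Lamp1 (-0.29 ± 0.07) and Hexa (-0.39 ± 0.11). At day 0, 2 of the 9 were higher (Ctsl, 0.65 ± 0.12, and Npc2, 0.41 ± 0.10) and 0 lower. Npc2 was also higher at day 4 (0.31, adjusted p = 0.0379) without array 1 of WT day 4.

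The phagocyte NADPH oxidase makes superoxide, and of its 3 members and the 2 actin regulators listed with them, 3 of 5 were lower in KO cultures at each day. Cybb, the catalytic gp91phox subunit, passed in neither comparison and had levels of 5.63, 5.57 and 5.64 in KO day 4 and 4.95, 5.04 and 5.05 in KO day 0 arrays, against 8.59, 5.88 and 5.68 in WT day 4 and 5.76, 5.58 and 5.85 in WT day 0 arrays. Array 1 of WT day 4 was far above the other WT day 4 arrays, which lay only slightly above the KO day 4 arrays. Cybb differed by -1.11 ± 0.53 (adjusted p = 0.17) at day 4. It differed by -0.72 ± 0.53 (adjusted p = 0.576) at day 0, which passed without that array (adjusted p = 0.000153). The SD of Cybb was 0.06 in KO day 0 and 0.14 in WT day 0 arrays, against 1.62 in WT day 4 arrays, which share in the error. Ncf4, the p40phox subunit, had differences of -0.16 ± 0.23 at day 4 and -0.35 ± 0.23 at day 0 and passed in neither, but passed at day 0 without the same array (adjusted p = 0.0376). Rac2, the small GTPase of blood cells that activates the oxidase, had levels of 6.20, 6.27 and 6.69 in KO day 4 and 6.27, 6.18 and 6.19 in KO day 0 arrays, against 8.60, 7.10 and 7.17 in WT day 4 and 7.34, 7.41 and 7.22 in WT day 0 arrays. KO arrays lay below WT arrays at both days, with WT day 4 array 1 well above the rest. Coro1a, the actin-binding coronin of leukocytes, had levels of 4.64, 4.88 and 4.78 in KO day 4 and 5.04, 5.06 and 5.0 in KO day 0 arrays, against 5.83, 5.5 and 5.29 in WT day 4 and 5.53, 5.51 and 5.78 in WT day 0 arrays. The groups of the genotypes did not overlap at either day. Lcp1, the actin-bundling L-plastin, had levels of 5.66, 5.64 and 5.23 in KO day 4 and 5.77, 5.49 and 5.65 in KO day 0 arrays, against 7.65, 6.93 and 6.65 in WT day 4 and 7.46, 7.40 and 7.36 in WT day 0 arrays. All KO arrays were far below all WT arrays. The day 4 difference was -1.24 ± 0.30 (adjusted p = 0.0112) for Rac2, -0.77 ± 0.12 (adjusted p = 0.00112) for Coro1a and -1.57 ± 0.20 (adjusted p = 0.000301) for Lcp1. The day 0 difference was -1.11 ± 0.30 (adjusted p = 0.0486) for Rac2, -0.57 ± 0.12 (adjusted p = 0.0149) for Coro1a and -1.77 ± 0.20 (adjusted p = 0.000221) for Lcp1. Without array 1 of WT day 4, Rac2 had a day 4 difference of -0.75 (adjusted p = 0.000941). The day 0 call of Rac2 did not survive leaving out any 1 of the day 0 arrays or KO day 4 arrays (adjusted p 0.0565 to 0.153). That of Coro1a was lost without WT day 0 array 3 (0.0801) or KO day 0 array 1 (0.0532) or 3 (0.0651). The other listed oxidase subunits, Rac1, Cyba and Ncf1, had 0 of 3 genes past limma's threshold at each day. An unadjusted p under 0.05 was reached by 1 of them at day 4 and 2 at day 0. Rac1 differed by -0.13 ± 0.07 at day 4 and -0.18 ± 0.07 at day 0, and Cyba by 0.17 ± 0.13 and 0.43 ± 0.13. Ncf1 differed by -0.4 at day 4 and -0.28 at day 0, the same direction as the members, without passing. Cyba passed without array 1 of WT day 4, higher in KO cultures at day 4 (0.35, adjusted p = 0.0145) and at day 0 (0.43, adjusted p = 0.00508).

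Of the chemokine receptors, the chemokine and the co-stimulator, 1 of 4 members was lower at day 4 and 2 of 4 at day 0. Cx3cr1, the fractalkine receptor of microglia and resident macrophages, had levels of 5.33, 5.25 and 4.67 in KO day 4 and 5.43, 5.25 and 5.61 in KO day 0 arrays, against 5.58, 5.55 and 5.64 in WT day 4 and 6.38, 6.35 and 6.23 in WT day 0 arrays. WT day 0 arrays were highest, and WT day 4 arrays were only a little above the highest KO day 4 array. Pf4, the chemokine CXCL4 of platelets and some macrophages, had levels of 4.27, 4.62 and 4.56 in KO day 4 and 4.81, 4.48 and 4.03 in KO day 0 arrays, against 4.84, 5.23 and 4.87 in WT day 4 and 5.68, 5.59 and 5.70 in WT day 0 arrays. Again WT day 0 arrays were highest, and the 2 day 4 groups lay close together without overlap. Their differences were -0.50 ± 0.15 (adjusted p = 0.0286) for Cx3cr1 and -0.50 ± 0.17 (adjusted p = 0.0553) for Pf4 at day 4. These were -0.89 ± 0.15 (adjusted p = 0.00281) for Cx3cr1 and -1.22 ± 0.17 (adjusted p = 0.000896) for Pf4 at day 0. The day 4 call of Cx3cr1 did not survive leaving out WT day 4 array 2 (adjusted p = 0.0591) or 3 (0.089) or KO day 4 array 3 (difference -0.30, 0.0742). Pf4 passed at day 4 when WT day 4 array 1 (adjusted p = 0.0429) or KO day 0 array 1 (0.0288) or 3 (0.0215) was dropped. Ccr2, the receptor that draws monocytes to CCL2, and the co-stimulator Cd86 were under the receptor level in all 4 groups and passed in no comparison.

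The last group joins membrane proteins of the MS4A family and a leukotriene cofactor. Ms4a7, a 4-span membrane protein of macrophages, had levels of 4.53, 4.70 and 3.91 in KO day 4 and 4.43, 4.43 and 3.89 in KO day 0 arrays, against 6.99, 6.76 and 6.60 in WT day 4 and 7.26, 7.16 and 7.15 in WT day 0 arrays. The genotypes were far apart at both days. Ms4a6c, a relative encoded near it, with 3 coding genes between them, had levels of 3.49, 3.46 and 3.32 in KO day 4 and 3.15, 3.00 and 3.07 in KO day 0 arrays, against 4.45, 4.21 and 3.95 in WT day 4 and 3.86, 3.76 and 4.11 in WT day 0 arrays. All KO arrays were under all WT arrays, and KO day 4 arrays lay above KO day 0 arrays, but the means of all 4 groups, from 3.07 to 4.20, were under the receptor level of 4.34. Alox5ap, the protein FLAP that presents arachidonic acid to 5-lipoxygenase, had levels of 6.73, 6.77 and 6.37 in KO day 4 and 5.23, 5.62 and 5.31 in KO day 0 arrays, against 6.93, 6.87 and 6.63 in WT day 4 and 7.08, 7.15 and 6.92 in WT day 0 arrays. KO day 0 arrays stood alone at the low end, while KO day 4 arrays overlapped WT day 4 arrays and lay just below WT day 0 arrays. The differences were -2.40 ± 0.19 (adjusted p = 1.28e-05) for Ms4a7, -0.78 ± 0.12 (adjusted p = 0.00101) for Ms4a6c and -0.18 ± 0.13 (adjusted p = 0.368) for Alox5ap at day 4. They were -2.94 ± 0.19 (adjusted p = 4.65e-06) for Ms4a7, -0.83 ± 0.12 (adjusted p = 0.00136) for Ms4a6c and -1.66 ± 0.13 (adjusted p = 1.42e-05) for Alox5ap at day 0. Alox5ap was the only member with a second probe set, which was read at 4.49, 4.55 and 4.50 in KO day 4 and 4.59, 4.67 and 4.97 in KO day 0 arrays, against 4.18, 4.63 and 4.41 in WT day 4 and 4.85, 5.0 and 4.75 in WT day 0 arrays. That probe set did not show the low KO day 0 level, so the probe sets of Alox5ap disagree.

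Between day 4 and day 0, 6 members passed the threshold in KO cultures and 8 in WT cultures. In a fit of the KO arrays alone, 13 passed in KO cultures. In KO cultures 5 members rose and 1 fell at day 4 relative to day 0, beside 13.8% of all genes higher and 16.9% lower, and the members' median change was 0.06. In WT cultures 3 rose and 5 fell, beside 11.1% of all genes higher and 11.7% lower, with a median of -0.02. With each array centred on its median, all genes split into 2440 higher and 4751 lower in KO cultures, where the values as deposited gave 3071 and 3757, and into 1979 and 3196 in WT cultures, against 2469 and 2603. That centring gave 4 members higher and 3 lower in KO cultures and 3 and 5 in WT cultures. The members that rose in KO cultures were Lilrb4a (1.42 ± 0.29 (adjusted p = 0.00251)), Alox5ap (1.24 ± 0.13 (adjusted p = 2.03e-05)) and Laptm5 (1.05 ± 0.11 (adjusted p = 1.43e-05)). Mpeg1 (0.80 ± 0.17 (adjusted p = 0.00278)) and Ms4a6c (0.35 ± 0.12 (adjusted p = 0.0469)) rose as well, and Folr2 fell (-0.47 ± 0.14 (adjusted p = 0.0181)). In WT cultures Mpeg1 (1.08 ± 0.17 (adjusted p = 0.000429)), Plek (0.88 ± 0.20 (adjusted p = 0.00562)) and Cd68 (0.42 ± 0.09 (adjusted p = 0.00421)) rose. Fcrls (-0.90 ± 0.18 (adjusted p = 0.00298)), Cx3cr1 (-0.73 ± 0.15 (adjusted p = 0.00267)) and Pf4 (-0.68 ± 0.17 (adjusted p = 0.0109)) fell in WT cultures. So did Csf1r (-0.65 ± 0.13 (adjusted p = 0.00254)) and C1qa (-0.48 ± 0.11 (adjusted p = 0.00611)). Mpeg1 alone passed in both genotypes. The change of Plek in WT cultures was 0.57 (adjusted p = 0.00162) without WT day 4 array 1. Without the same array 9 members rose and 5 fell in KO cultures, beside 15.6% and 18.8% of all genes. Adgre1, Fcgr2b, Lyz2 and Cybb were added to those that rose, and Cd53, Trem2, Cd14 and Coro1a to those that fell. In WT cultures 3 then rose and 8 fell, beside 11.9% and 11.1% of all genes. Msr1 (-0.53, adjusted p = 0.00233), Lcp1 (-0.62, 0.0055) and Ncf4 (-0.42, 0.0107) joined those that fell. The fall of Folr2 in KO cultures did not survive leaving out KO day 0 array 1 (adjusted p = 0.0795) or KO day 4 array 1 (0.0796). The rise of Ms4a6c was lost without any 1 of 8 arrays (adjusted p 0.0514 to 0.134).

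**Figure D4:**
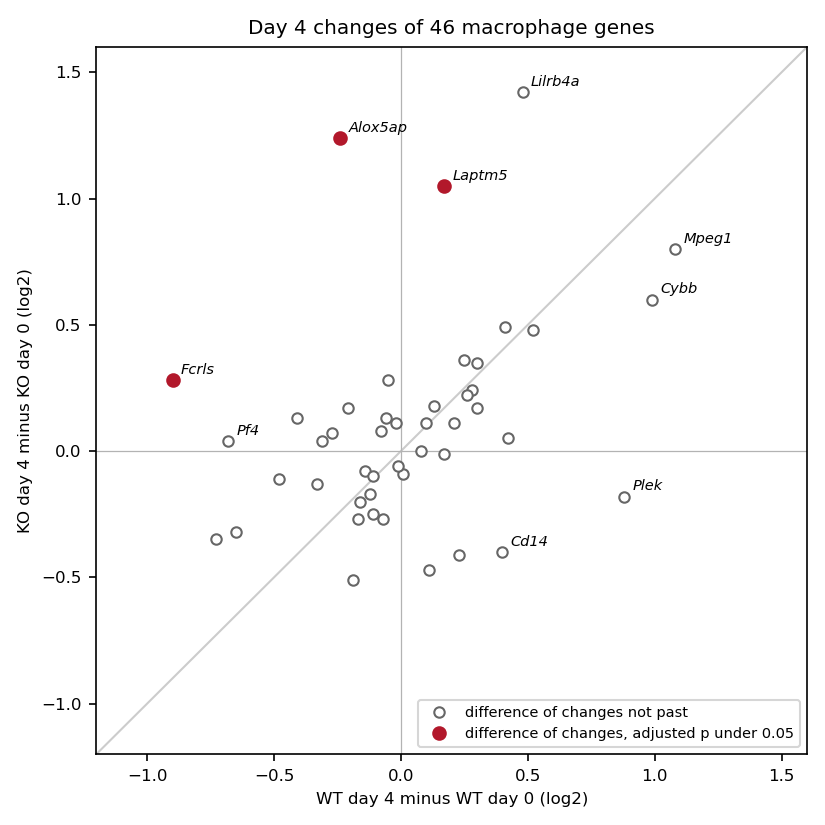
Change of each of the 46 macrophage genes at day 4 relative to day 0 in KO cultures (vertical axis, log2) against that in WT cultures (horizontal axis, log2), with the line of equal change in grey and filled points where the difference of the changes passed an adjusted p of 0.05. Alox5ap, Laptm5 and Fcrls, the 3 filled points, lie above the line, and most points gather near 0 on both axes.

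The changes of 3 members differed between the genotypes, with the KO change above the WT change for all 3, beside 2.15% of all genes with a higher and 1.81% with a lower difference of changes. The median difference over all 46 members was 0.01. For Alox5ap it was 1.48 ± 0.19 (adjusted p = 0.00169), with a KO minus WT difference of -0.18 at day 4 and -1.66 at day 0. It was 0.88 ± 0.15 (adjusted p = 0.0082) for Laptm5, which was lower in KO than in WT cultures at both days. For Fcrls the difference was 1.17 ± 0.26 (adjusted p = 0.0267), where the level fell in WT cultures and the KO change did not pass. The Fcrls call did not survive leaving out any 1 of WT day 0 arrays 1 and 2, KO day 0 arrays 1 and 2 and KO day 4 array 3 (adjusted p 0.0551 to 0.0721). Without WT day 4 array 1, 7 members passed with the KO change above the WT change and 2 with it below. Of all genes, 4.34% and 5.31% then passed in these directions. The members added were Adgre1, Lilrb4a, Cybb and Ncf4 with the KO change above and Plek and Folr2 with it below.

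The other myeloid lists give the surroundings of these members. Of 17 phagocyte integrins and scavenger receptors, 9 were lower in KO cultures at day 4 and 5 at day 0, with 0 higher, and the list's median difference was -0.70 at day 4 and -0.39 at day 0. Stab1, a scavenger receptor of macrophages and sinusoidal endothelium, averaged 4.78 in KO day 4 and 4.87 in KO day 0 arrays, against 6.23 in WT day 4 and 6.42 in WT day 0 arrays. The difference in Stab1 was -1.44 ± 0.12 (adjusted p = 2.03e-05) at day 4. It was -1.55 ± 0.12 (adjusted p = 1.33e-05) at day 0. C3ar1, the complement C3a receptor, differed by -1.43 ± 0.13 (adjusted p = 3.89e-05) and -1.22 ± 0.13 (adjusted p = 0.000142). Cd84, a SLAM family receptor, differed by -1.18 ± 0.15 (adjusted p = 0.000251) and -0.90 ± 0.15 (adjusted p = 0.00279). The C5a receptor C5ar1 differed by -1.36 ± 0.18 (adjusted p = 0.000365) and -1.30 ± 0.18 (adjusted p = 0.000903), and the integrin chain Itgam by -0.90 ± 0.19 (adjusted p = 0.0052) and -1.11 ± 0.19 (adjusted p = 0.00328). With array 1 of WT day 4 left out, 9 genes of this list were lower at each day. Gpnmb, a lysosomal glycoprotein that fibroblasts also express, was lower at day 4 (-1.06 ± 0.11 (adjusted p = 0.000114)) and not at day 0 (0.12 ± 0.11 (adjusted p = 0.675)). Of 10 Toll-like receptor genes and co-receptors, 5 were lower at day 4 and 4 at day 0, among them Tlr13, which senses bacterial ribosomal RNA (-1.48 ± 0.13 (adjusted p = 2.34e-05) and -1.77 ± 0.13 (adjusted p = 6.42e-06)). Tlr1 (-0.84 ± 0.14 (adjusted p = 0.0013) and -0.83 ± 0.14 (adjusted p = 0.0031)) was among them too, as was Tlr7, which senses single-stranded RNA (-0.97 ± 0.20 (adjusted p = 0.005) and -1.03 ± 0.20 (adjusted p = 0.00849)). Tlr8 also passed at both days (-0.57 ± 0.18 (adjusted p = 0.0409) and -0.78 ± 0.18 (adjusted p = 0.0216)) and Ly96, the MD-2 partner of TLR4, at day 4 (-0.64 ± 0.16 (adjusted p = 0.0145)). Of 13 measured immunoreceptor signalling genes, 8 were lower at day 4 and 4 at day 0, among them Nckap1l, the blood cell subunit of the WAVE complex (-1.41 ± 0.10 (adjusted p = 6.7e-06) and -1.47 ± 0.10 (adjusted p = 5.47e-06)). Also lower at both days were Fermt3, the integrin activator kindlin-3 (-1.03 ± 0.14 (adjusted p = 0.000438) and -0.93 ± 0.14 (adjusted p = 0.0016)), and the lipid phosphatase Inpp5d (-0.78 ± 0.14 (adjusted p = 0.00258) and -1.42 ± 0.14 (adjusted p = 9.35e-05)). Dock2, a Rac activator of blood cells, passed at both days with -0.58 ± 0.09 (adjusted p = 0.000951) and -0.46 ± 0.09 (adjusted p = 0.00806). In the signalling list 6 genes were lower and 1 higher at day 0 without array 1 of WT day 4. Of the Toll-like receptor list, Tlr2 was then higher at day 4 (1.10, adjusted p = 1.89e-05), and 2 genes (Tlr2 and Myd88) were higher at day 0.

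Among 11 macrophage cytokine genes, Apoe (-0.57 ± 0.08 (adjusted p = 0.000418)) and Ccl9 (-1.31 ± 0.30 (adjusted p = 0.00913)) were lower at day 4, while at day 0 Apoe was lower (-0.52 ± 0.08 (adjusted p = 0.0015)) and the chemokine Ccl7 higher (1.30 ± 0.32 (adjusted p = 0.0321)). The cytokine list's mean was 6.17, 6.35 and 6.11 in KO day 4 arrays, against 7.63, 5.84 and 5.79 in WT day 4 arrays. All 3 KO arrays lay below array 1 of WT day 4 and above the other WT day 4 arrays. The direction of the list at day 4 turned on that array, with a median difference of -0.51 with it and 0.24 without it. Without it 3 genes were higher at day 4 (Ccl2, 2.02, Ccl7, 1.30, and Cxcl2, 1.88) and 2 lower (Apoe, -0.63, and Ccl9, -0.81), and 3 were higher and 3 lower at day 0. Of 8 measured myeloid transcription factors, Cebpb was higher in KO cultures at both days (1.12 ± 0.30 (adjusted p = 0.0179) and 1.14 ± 0.30 (adjusted p = 0.0405)) and Cebpa lower at day 4 (-0.64 ± 0.17 (adjusted p = 0.018)). Leaving out array 1 of WT day 4 added Runx1 (1.06, adjusted p = 0.000616) to the higher and Maf (-0.56, adjusted p = 0.0016) to the lower genes at day 4. The ligands of CSF1R and the other colony-stimulating factors had 0 of 4 genes past limma's threshold between the genotypes at each day (1 at day 4 and 0 at day 0 at an unadjusted p under 0.05). Csf1, the main ligand, averaged 9.43 in KO day 4 and 9.97 in KO day 0 arrays, against 8.99 in WT day 4 and 9.85 in WT day 0 arrays, and differed by 0.44 ± 0.20 (adjusted p = 0.145) and 0.12 ± 0.20 (adjusted p = 0.844). Csf1 was higher in KO cultures at day 4 when array 1 of WT day 4 was left out (0.75, adjusted p = 0.000394). Il34, the other ligand, differed by 0.28 ± 0.13 (adjusted p = 0.154) and 0.07 ± 0.13 (adjusted p = 0.869). Of 5 measured MHC class II genes only H2-Ab1 passed, at day 4 (1.67 ± 0.35 (adjusted p = 0.00557)).

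**Figure D5:**
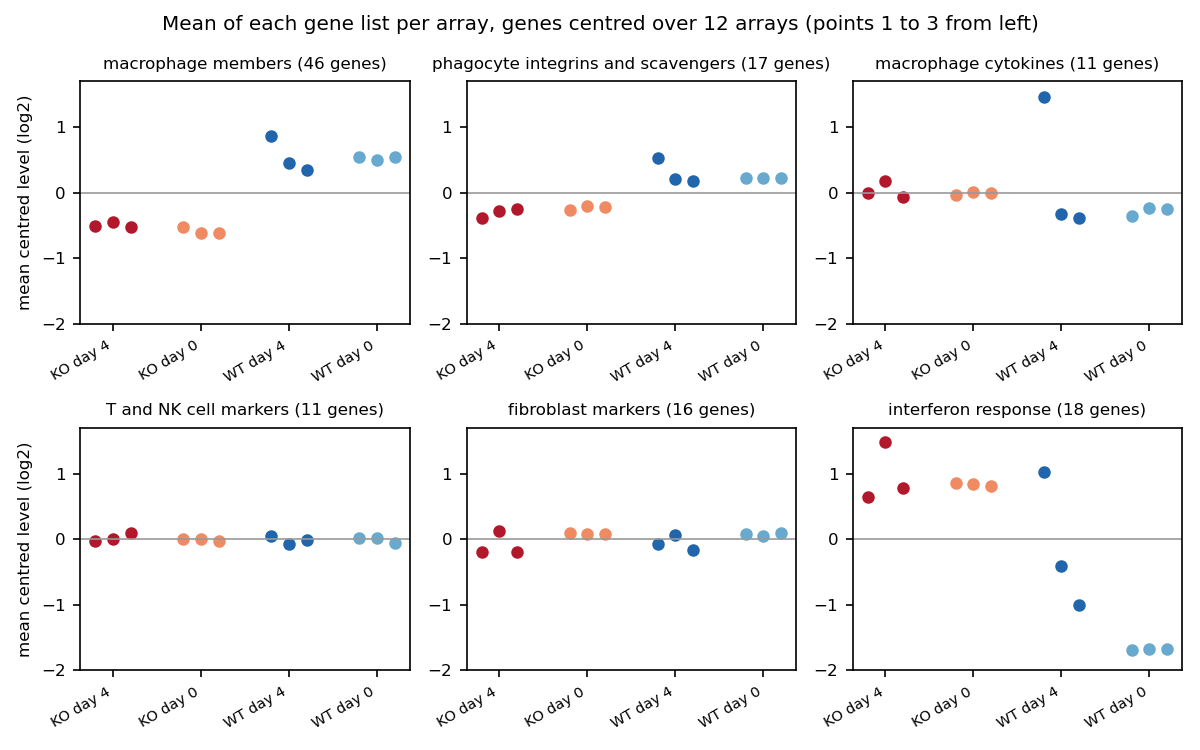
Mean of a gene list on each array (points, arrays 1 to 3 from left within a group) after each gene was centred over the 12 arrays (log2), for the 46 macrophage genes and 5 other lists on the same axis. The macrophage genes and the phagocyte integrins are lower in KO than in WT arrays, the fibroblast and the T and NK lists lie near 0, and interferon response genes are highest in the KO arrays and array 1 of WT day 4.

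Markers of other blood and tissue cell types had few genes past the threshold between the genotypes. Neutrophil (10 measured genes), B cell (5), mast cell (7), dendritic cell (4) and osteoclast (5) markers had 0 genes past limma's threshold at either day, with and without array 1 of WT day 4. Most of the genes lay under the receptor level, with 2 neutrophil, 1 B cell, 1 mast cell, 3 dendritic cell and 2 osteoclast markers above it, so a difference in the others may not have been detectable. At an unadjusted p under 0.05, 1 neutrophil, 1 mast cell and 1 osteoclast marker passed at day 4 and 1 mast cell marker at day 0. At day 4 the highest-level genes of these lists differed by -0.01 ± 0.11 for Cxcr2 and -0.10 ± 0.07 for Csf3r of neutrophils, 0.08 ± 0.11 for Pax5 and 0.06 ± 0.10 for Cd22 of B cells, and -0.04 ± 0.14 for Kit and 0.27 ± 0.10 for Ms4a2 of mast cells. The dendritic cell genes Cd209a and Zbtb46 differed by 0.03 ± 0.10 and -0.02 ± 0.10, and the osteoclast genes Acp5 and Ocstamp by -0.49 ± 0.22 and -0.21 ± 0.11. At day 0 these 10 differences lay between -0.29 and 0.19. Of 11 T and NK cell markers, 3 of them above the receptor level, Prf1 was higher (0.32 ± 0.08) and Cd5 lower (-0.29 ± 0.08) at day 4, and 0 passed at day 0. The platelet chemokine gene Ppbp was the 1 erythroid or megakaryocyte marker of 5 that passed, higher in KO cultures at day 4 (1.79 ± 0.24 (adjusted p = 0.000403)) and at day 0 (1.22 ± 0.24 (adjusted p = 0.00955)). At day 0 the microglial receptor P2ry12, 1 of 5 microglia markers (-0.58 ± 0.09 (adjusted p = 0.00258)), and the endothelial glycoprotein Emcn, 1 of 7 endothelial markers (-1.08 ± 0.10 (adjusted p = 5.11e-05)), were lower in KO cultures. Without array 1 of WT day 4, 2 endothelial markers (Emcn, 0.35, and Pecam1, 0.32) were higher and 1 (Kdr, -0.31) lower at day 4. Of 16 fibroblast markers, 2 were higher and 4 lower at day 4, and 3 higher and 0 lower at day 0, with medians of 0.00 and -0.15. Those with the smallest p were Thy1 (0.66 ± 0.08 (adjusted p = 0.000303)), S100a4 (-0.37 ± 0.08 (adjusted p = 0.0069)), Fap (-0.64 ± 0.17 (adjusted p = 0.0164)) and Lum (-0.74 ± 0.19 (adjusted p = 0.0164)) at day 4 and Dcn (0.75 ± 0.11 (adjusted p = 0.00124)), Pdgfra (0.71 ± 0.17 (adjusted p = 0.0231)) and Lum (0.77 ± 0.19 (adjusted p = 0.0336)) at day 0. At day 0, 2 fibroblast markers (Fap, -0.50, and Col5a1, -0.36) were lower once array 1 of WT day 4 was left out.

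Interferon response genes, induced by viral nucleic acid and by interferon itself, were higher in KO cultures. Their mean was 7.49, 8.33 and 7.64 in KO day 4 and 7.72, 7.70 and 7.66 in KO day 0 arrays, against 7.88, 6.44 and 5.84 in WT day 4 and 5.16, 5.19 and 5.19 in WT day 0 arrays. The WT day 0 arrays were lowest and nearly equal, and array 1 of WT day 4 was within the range of the KO arrays. Of 18 measured genes, 9 were higher in KO cultures at day 4 and 14 at day 0, with 0 lower and medians of 1.12 and 2.61. Without array 1 of WT day 4, 17 were higher at day 4 and 16 at day 0, with 0 lower and a day 4 median of 1.73. Ifit1, an antiviral RNA-binding protein, was higher by 4.96 ± 0.49 (adjusted p = 7.38e-05) at day 0, and Oas3, a synthetase that activates RNase L, by 1.31 ± 0.19 (adjusted p = 0.000645) at day 4. Within WT day 4, array 1, with the highest interferon mean, also had the highest mean over the 46 macrophage genes. Between the genotypes the median differences of the 2 lists were opposite in sign at both days. For interferon genes and macrophage genes they were 1.12 and -0.93 at day 4 and 2.61 and -0.95 at day 0. The part of the interferon response in the macrophage gene differences was not tested.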

How the data were processed

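RNA of 12 fibroblast samples was measured on 1-colour Affymetrix arrays, 3 per group, and arrays were grouped by the genotype and day in their titles. The authors deposited normalized log2 levels for each probe set and array. Affymetrix Expression Console is named in the submitters' processing notes without a version, and its settings for background, normalization and summary were not given in the sources used here. Arrays give no count or depth, and their number limits the precision.

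Each gene was represented by the probe set highest on average over 12 arrays, among 23521 of 41345 probe sets with 1 gene symbol. Limma 3.58.1 in R 4.3.3 fitted 4 group means to all arrays (8 residual and 4.56 prior degrees of freedom) for 5 comparisons. Tests were two-sided, with Benjamini-Hochberg adjustment over 22180 genes and a threshold of 0.05, and no filter on low levels. The script was tested on simulated data.

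The members, the 20 other gene lists with 173 measured genes, and the motif words were chosen with earlier results of these data known. Values of every array are given for members past the threshold in at least 1 comparison and for 11 lineage genes. Genes of other lists are named where past the threshold, up to 4 per list and comparison by smallest p or all where 5 or fewer passed, and by the 2 highest-level genes where none passed at either day. Alternatives were filters, normalizations, probe-set choices, variance priors, array weights, the arrays in the fit, a replicate block, a 2-fold minimum and leaving out each array. Leaving out WT day 4 array 1 from the other lists was added after values were seen.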

Additional observations from a re-analysis of the deposited data

Results flagged for a closer look

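The change from day 0 to day 4 differed between the genotypes for 3 members by limma's test of the difference itself, KO change minus WT change. For Alox5ap the difference was 1.48 (adjusted p = 0.00169), with changes of 1.24 in KO cultures and -0.24 in WT cultures, and higher levels at day 4 in all 3 KO arrays. Its second probe set did not show this pattern. For Laptm5 the difference was 0.88 (adjusted p = 0.0082), with changes of 1.05 in KO cultures and 0.17 in WT cultures. For Fcrls it was 1.17 (adjusted p = 0.0267), with changes of 0.28 in KO cultures and -0.90 in WT cultures, and this call was lost when any 1 of 5 arrays was left out. Groups of 3 arrays are too small for the outlier test used for larger groups, so none was run.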

How the results depend on the processing

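Of the members called between KO and WT, none changed sign under any setting tried. Under the 2 filters, 2 normalizations and 2 probe-set choices, 30 to 32 members were lower at day 4 and 29 to 32 at day 0. Array weights gave 11 members between KO day 4 and KO day 0 (6 as reported), beside 3403 genes higher and 4094 lower. They gave 5 members with a difference of changes (3). A fit of only the groups compared gave 13 between KO day 4 and KO day 0, beside 3102 genes higher and 3801 lower. With a 2-fold minimum 3 members passed between KO day 4 and KO day 0, 1 between WT day 4 and WT day 0 (8) and 21 between KO and WT at day 4 (32). Over all genes that minimum gave 529 higher and 305 lower, 421 and 358, and 199 and 131 in the same order. At the 99th percentile of receptor genes 23 members were above the level (36), and at the 90th 42. With 1 array left out in turn, the counts ran from 4 to 14 (KO day 4 against KO day 0), 8 to 11 (WT day 4 against WT day 0), 30 to 34 (KO against WT at day 4), 26 to 38 (KO against WT at day 0) and 2 to 9 (difference of changes). The highest of each came without WT day 4 array 1, and at day 4 also without KO day 0 array 1. The difference of changes, -0.04 for Adgre1 and -0.39 for Cybb, ranged from -0.52 to 0.73 and from -0.91 to 0.55, and the upper values, without WT day 4 array 1, passed (adjusted p = 0.027 and 0.0211). The cause was not tested. In a fit of the day 4 arrays alone, the day 4 calls of Spi1, Adgre1, Cd52, Vav1, Lcp2, Mrc1, Rac2 and Cx3cr1 were lost (adjusted p 0.0606 to 0.103). The day 0 call of Rac2 was lost with quantile normalization (0.0801), all probe sets (0.109), a trended robust prior (0.116) and the replicate block (0.058). That of Adgre1 was lost with all probe sets (0.0586) and the trended robust prior (0.0836), and that of Spi1 with all probe sets (0.0981) and the replicate block (0.0683). Deviations of same-numbered arrays correlated with r from -0.06 to 0.182 (18 pairs, 2 over 0.1), against -0.204 to 0.116 in 36 other pairs. Of 12 arrays, 5 correlated best with their own number. These values cannot show if the numbers pair the samples, and the labels do not say. With a replicate block the member counts were 6, 9, 33, 31 and 4 in the same order. Over all genes, array weights gave 1172 higher and 1390 lower at day 0 (549 and 693) and 828 and 1024 for the difference of changes (476 and 401). The groups compared alone gave 748 and 1175 at day 4 (1850 and 2746) and 1144 and 1309 at day 0. Only 3 arrays per group, with levels of several members near those of receptor genes, limit what can be called.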

Other observations

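A search over all 22180 genes, made after values had been seen, found 46 genes at least 2-fold lower in KO than in WT cultures at both days with an adjusted p under 0.05 at each, which is 0.207% of all genes. Of these, 18 were members (39.1% of the 46 members), 5 stood in the other myeloid lists (Tlr13, Stab1, Nckap1l, C5ar1 and C3ar1) and 23 in none. Members and lists were chosen with earlier results of these data known, so these shares only describe and test nothing. Among the 23 were genes known from myeloid cells. Pld4, a nuclease of lysosomes, averaged 4.30 in KO day 4 and 4.33 in KO day 0 arrays, against 6.13 in WT day 4 and 6.01 in WT day 0 arrays. Cd180, the partner of the member Ly86, averaged 3.30 in KO day 4 and 3.23 in KO day 0 arrays, against 4.86 in WT day 4 and 4.55 in WT day 0 arrays. The receptor gene Igsf6 differed by -1.56 ± 0.27 at day 4 and -1.36 ± 0.27 at day 0, and Ms4a6d, of the same family as Ms4a7, by -1.56 ± 0.22 and -1.36 ± 0.22.

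Others of the 23 belong to connective tissue and metabolism. The carbonic anhydrase gene Car3 averaged 3.77 in KO day 4 and 4.60 in KO day 0 arrays, against 7.19 in WT day 4 and 8.02 in WT day 0 arrays, a wider gap than for any member. The elastin gene Eln differed by -1.90 ± 0.33 at day 4 and -3.22 ± 0.33 at day 0, and the imprinted genes Mest (-1.69 ± 0.32 and -2.03 ± 0.32) and Dlk1 (-1.64 ± 0.25 and -1.36 ± 0.25) were lower as well. With a weaker criterion, an adjusted p under 0.05 at each day without a minimum of size, 287 genes (1.29%) were lower at both days, 29 of them members.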
